A study of Mus musculus with 20 samples.

Results

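The genes described here mark the oligodendrocyte lineage, from its precursors to cells about to make myelin: Pdgfra, Cspg4, Matn4, Gpr17, Olig1, Olig2, Sox10 and Lhfpl3. These 8 genes were taken by name and matched to the Ensembl identifiers of a table of 25317 genes, which gave values for 7 of them. Lhfpl3 was matched to no identifier of the table and was not analysed here.

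RNA was sequenced from the cortex of C57BL/6 mice aged 3 months that were wild type or carried a heterozygous Foxp2 deletion, described by the submitters as a deletion in the cortex. The driver that would limit the deletion to the cortex, and the cells that carry the GFP tag on their ribosomes, are not given in the sources used here. From each animal, ribosomes were pulled down with anti-GFP serum (translating ribosome affinity purification, here IP), and a sample of the same lysate was kept from before the pull-down (Input). Both genotypes went through the same pull-down, and no untagged control was analysed here. IP and Input were compared in 5 wild-type animals (wt734, wt736, wt785, wtBT13, wtBT14) and 3 heterozygotes (het729, het786, hetBT13).

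Oligodendrocyte precursors divide in the adult cortex and give rise to myelinating oligodendrocytes. They respond to platelet-derived growth factor through Pdgfra, carry the proteoglycan NG2, made from Cspg4, and make matrix proteins such as matrilin-4. The transcription factors Olig1, Olig2 and Sox10 stay on through the whole lineage, while the receptor Gpr17 marks cells that have left the cycle and not yet myelinated. Outside the lineage, Pdgfra is also made by fibroblast-like cells of vessels and meninges, and Cspg4 by mural cells. Foxp2 encodes a forkhead repressor found in deep-layer neurons of the cortex.

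Promoter sequence is shown for the growth factor receptor Pdgfra and the proteoglycan gene Cspg4, the surface markers of precursors. It is also shown for Olig2, a regulator with lower levels in IP than in Input. Each run is the 250 bases before the RefSeq start on GRCm38.p6, read 5′ to 3′ on the gene's strand: chr5:75152001-75152250 (plus) for Pdgfra, chr9:56864854-56865103 (plus) for Cspg4 and chr16:91225300-91225549 (plus) for Olig2. Capitals mark matches on either strand to the E-box CANNTG, the kind of site bound by Olig proteins and other basic helix-loop-helix factors, and to the SOX core ACAAT, the kind bound by Sox10 and its relatives.
Pdgfra: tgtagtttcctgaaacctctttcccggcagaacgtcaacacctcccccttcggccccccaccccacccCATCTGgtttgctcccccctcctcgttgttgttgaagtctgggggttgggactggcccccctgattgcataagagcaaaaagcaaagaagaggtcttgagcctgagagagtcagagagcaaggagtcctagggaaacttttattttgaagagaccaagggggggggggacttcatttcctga
Cspg4: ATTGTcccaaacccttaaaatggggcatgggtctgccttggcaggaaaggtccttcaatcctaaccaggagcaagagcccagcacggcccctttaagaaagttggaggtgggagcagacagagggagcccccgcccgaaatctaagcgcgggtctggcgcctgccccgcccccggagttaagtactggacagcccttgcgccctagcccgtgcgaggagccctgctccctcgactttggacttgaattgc
Olig2: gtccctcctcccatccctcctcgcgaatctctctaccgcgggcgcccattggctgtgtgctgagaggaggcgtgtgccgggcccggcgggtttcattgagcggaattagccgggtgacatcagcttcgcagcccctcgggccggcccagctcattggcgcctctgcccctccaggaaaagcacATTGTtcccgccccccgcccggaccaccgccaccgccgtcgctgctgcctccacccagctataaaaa
The Pdgfra run held 1 E-box, starting 182 bases before the gene's start, and no SOX core. Cspg4 and Olig2 each held 1 SOX core, at 250 and 67 bases before the start, and no E-box. Over 32851 mouse promoters of this length, 66.2% held an E-box and 27.7% a SOX core. The forkhead core TGTTTAC was found in 3.17% of them and in none of these 3. These are matches of letters, not measured sites.

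Depth limits the weaker genes. The 20 libraries, of 10 animals, totalled 2689544 to 5754169 counts. Input libraries had 3391291 to 3934152 counts in wild types against 2782934 to 4072270 in heterozygotes, and IP libraries 4061562 to 5754169 against 4917886 to 5337469. Mitochondrially encoded genes took 0.928% to 1.86% of the counts in the compared Input libraries and 0.0616% to 0.398% of IP counts, the highest IP share being that of het729 and the next 0.127%. Foxp2 itself held 27.6 ± 3.44 CPM (counts brought to a common library size by the TMM method; SD, n = 3) in heterozygous Input and 46.8 ± 10.8 (n = 5) in wild-type Input, with every heterozygote below every wild type. In IP it held 46.8 ± 12.9 and 70.1 ± 21.1 CPM, and the groups overlapped.

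Per kilobase of exon, the scale on which genes can be set side by side, Olig1 stood far above the other members. Wild-type Input held 99.2 CPM per kb of Olig1, 9.47 of Olig2, 5.23 of Sox10, 1.88 of Gpr17, 0.872 of Pdgfra, 0.562 of Matn4 and 0.327 of Cspg4 (means, n = 5). Their SDs were 10.2, 3.09, 1.15, 0.384, 0.192, 0.0709 and 0.110 in the same order, and among neighbours in this order the 5 libraries overlapped for Olig2 and Sox10 and for Pdgfra and Matn4. In wild-type IP the order was kept, but Olig1 had come down to 24.3 ± 4.62 CPM per kb and Cspg4 stood at 0.590 ± 0.182, beside 0.714 ± 0.224 for Matn4 and 0.774 ± 0.397 for Pdgfra. Those last 3 genes did not differ in IP beyond their spread. In bulk tissue, fewer cells of the lineage and less RNA in each cell cannot be told apart.

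**Figure D1:**
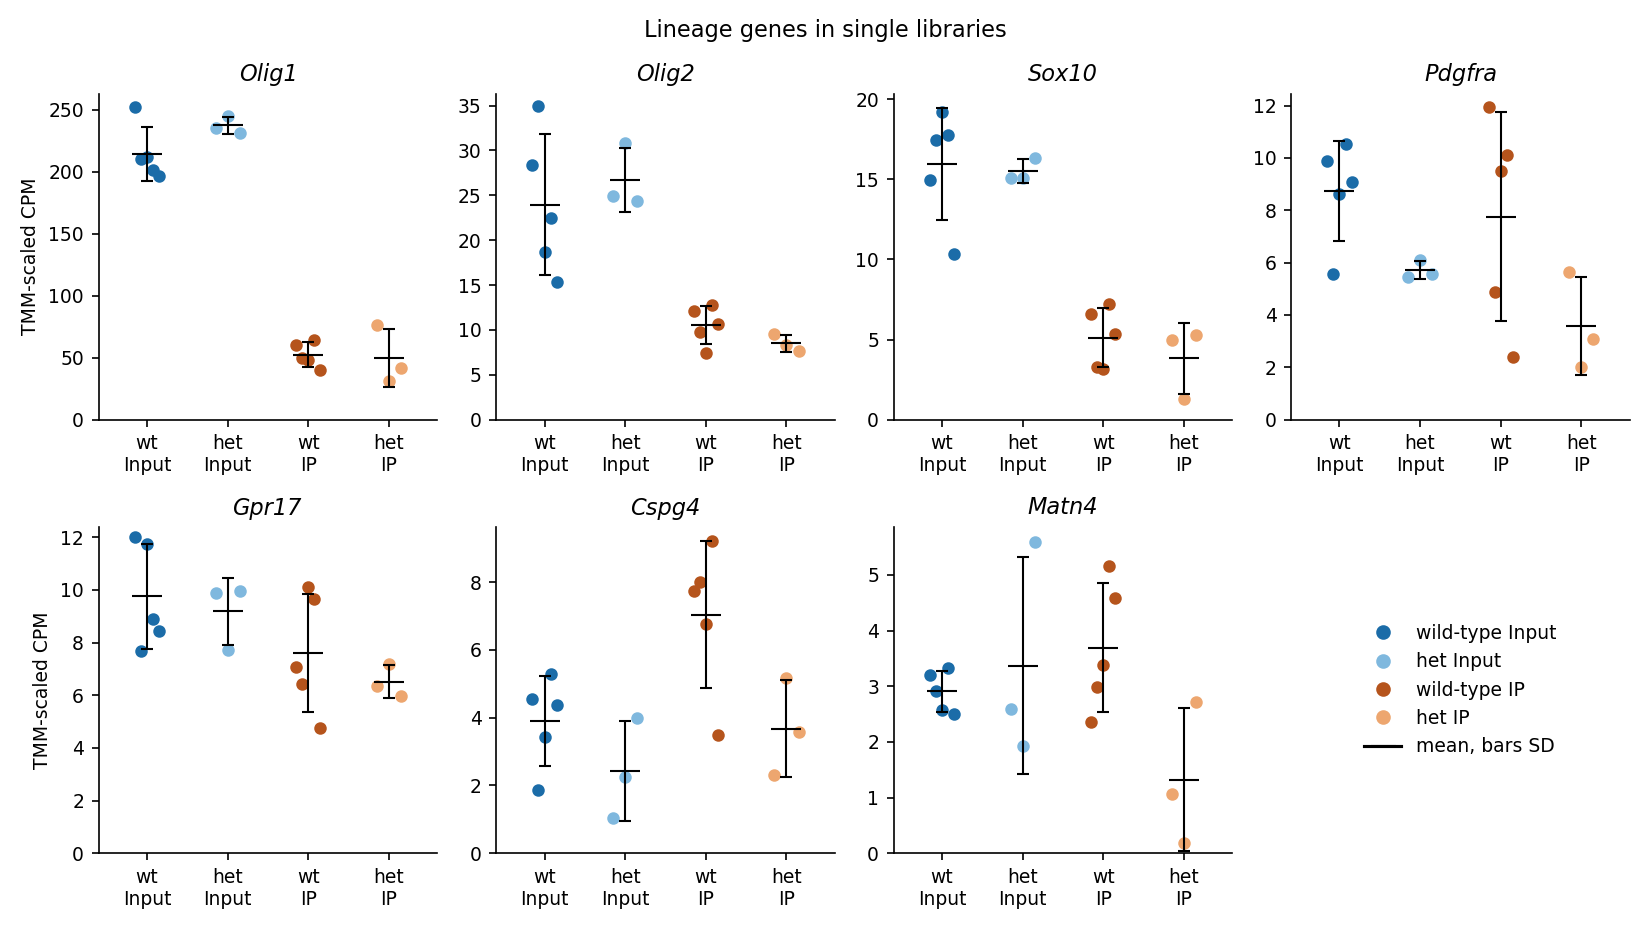
TMM-scaled CPM of the 7 measured genes in each library (points), with group means and SDs (black), in wild-type and heterozygous Input and IP. The vertical scale differs between panels and starts at 0. Olig1, Olig2 and Sox10 are lower in every IP library than in every Input library, whereas for Pdgfra and Gpr17 the fractions overlap.

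The question put to the pull-down was how each gene's level in IP compared with its level in the whole lysate. In both genotypes the lineage transcription factors were lower in IP, the receptors Pdgfra and Gpr17 did not pass the test, and Cspg4 in wild types stood on the other side, higher in IP. The test was edgeR's quasi-likelihood F test on 16 libraries with the animal as a block and Benjamini-Hochberg adjustment over 14797 genes. In wild types 3 of the 7 members were lower in IP, where 25.6% of all genes tested were called lower, and 1 was higher, where 28.5% of all genes were. In heterozygotes 4 members were lower, against 22.1% of all genes, and none was higher, against 22.6%.

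Olig1 (ENSMUSG00000046160, chr16:91269772-91271933, plus strand, mm10), a helix-loop-helix factor needed for myelination and repair, had the lowest fitted change of the members in both genotypes. Input and IP of the wild types held 252 and 60.4 CPM in wt734, 210 and 49.7 in wt736, 212 and 48.1 in wt785, 201 and 64.5 in wtBT13 and 196 and 39.7 in wtBT14. In the heterozygotes Input and IP held 235 and 76.4 CPM in het729, 245 and 31.0 in het786 and 231 and 42.0 in hetBT13. No IP library came near an Input library. The log2 fold change of IP over Input was -2.06 (SE 0.15, edgeR adjusted p = 3.24e-07) in wild types and -2.34 (SE 0.20, adjusted p = 2.58e-06) in heterozygotes. IP was lower than Input in 8 of 8 animals. So it was for Olig2 and Sox10, and for 21.4% of all genes tested.

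Sox10 (ENSMUSG00000033006, chr15:79154908-79165240, minus strand), which drives the myelin genes, was also lower in IP, from a lower level. Its wild-type Input and IP levels were 14.97 and 6.57 CPM in wt734, 17.5 and 3.29 in wt736, 19.2 and 3.17 in wt785, 17.8 and 7.19 in wtBT13 and 10.3 and 5.33 in wtBT14. The heterozygous levels were 15.1 and 4.95 CPM in het729, 15.1 and 1.29 in het786 and 16.4 and 5.28 in hetBT13. The 2 fractions did not overlap, and het786 gave the lowest IP library, with 7 counts. Log2 fold changes were -1.66 (SE 0.25, edgeR adjusted p = 1.34e-05) in wild types and -2.07 (SE 0.34, adjusted p = 6.74e-05) in heterozygotes.

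Olig2 (ENSMUSG00000039830, chr16:91225457-91228677, plus strand), which specifies the lineage, ran from 15.3 to 35.0 CPM in wild-type Input and from 24.3 to 30.8 in heterozygous Input. In IP it ran from 7.39 to 12.8 CPM in wild types and from 7.66 to 9.55 in heterozygotes, below every Input library. The change was -1.19 (SE 0.17, edgeR adjusted p = 4.69e-06) in wild types and -1.66 (SE 0.22, adjusted p = 4.40e-06) in heterozygotes on the log2 scale. Within the 8 animals its ratio of IP to Input lay between 0.269 in het786 and 0.694 in wtBT14.

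Cspg4 (ENSMUSG00000032911, chr9:56865033-56899870, plus strand) was the member with more RNA in the pull-down. Wild types held, in Input and then in IP, 4.54 and 7.74 CPM in wt734, 1.85 and 7.996 in wt736, 3.44 and 6.75 in wt785, 5.28 and 9.21 in wtBT13 and 4.38 and 3.49 in wtBT14. All wild types but wtBT14 were higher in IP. Heterozygotes held, in the same order of fractions, 1.04 and 2.30 CPM in het729, 2.25 and 5.16 in het786 and 3.99 and 3.57 in hetBT13, so that hetBT13 alone was lower in IP. The log2 fold change was 0.84 (SE 0.28, edgeR adjusted p = 0.0148) in wild types. That call rested on wt736, whose Input held 7 counts: without this animal the change was 0.58 (adjusted p = 0.109). In heterozygotes it was 0.63 (SE 0.45, adjusted p = 0.254) and did not pass.

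Pdgfra (ENSMUSG00000029231, chr5:75152292-75198215, plus strand) showed no called difference between the fractions in either genotype. Its Input and IP levels in wild types were 9.89 and 11.95 CPM in wt734, 5.56 and 4.86 in wt736, 8.61 and 9.50 in wt785, 10.6 and 10.1 in wtBT13 and 9.08 and 2.39 in wtBT14. In heterozygotes they were 5.46 and 5.66 CPM in het729, 6.10 and 2.03 in het786 and 5.58 and 3.06 in hetBT13. The fractions overlapped in wild types, and IP was the lower one in 5 of 8 animals. The log2 fold changes were -0.25 (SE 0.26, edgeR adjusted p = 0.428) in wild types and -0.71 (SE 0.40, adjusted p = 0.151) in heterozygotes. Without wtBT14 the wild-type value was 0.04.

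Gpr17 (ENSMUSG00000052229, chr18:31942997-31949636, minus strand), a receptor of the purinergic kind, was somewhat lower in IP without passing the test. Input ran from 7.68 to 12.03 CPM in wild types and from 7.70 to 9.97 in heterozygotes, and IP from 4.77 to 10.1 and from 5.96 to 7.19 CPM. IP was below Input in 7 of 8 animals, wtBT13 being the exception. The log2 fold changes were -0.39 (SE 0.19, edgeR adjusted p = 0.0926) in wild types and -0.52 (SE 0.26, adjusted p = 0.110) in heterozygotes. With upper-quartile scaling the wild-type value became -0.48 and passed (adjusted p = 0.0414).

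Matn4 (ENSMUSG00000016995, chr2:164389393-164405160, minus strand), the matrilin gene, was lower in IP in heterozygotes and did not pass in wild types. Wild-type animals had Input and IP levels of 3.21 and 2.36 CPM in wt734, 2.91 and 2.98 in wt736, 2.58 and 3.38 in wt785, 3.33 and 5.17 in wtBT13 and 2.51 and 4.59 in wtBT14. Heterozygous animals had 2.60 and 1.06 CPM in het729, 1.93 and 0.184 in het786 and 5.58 and 2.72 in hetBT13. IP over Input was 0.408 in het729, 0.0957 in het786 and 0.488 in hetBT13, and 0.735 to 1.83 in the wild types, with no overlap, as for 1.31% of all genes in this direction. The interaction term for this difference did not pass (edgeR adjusted p = 0.99998). The lowest of these rests on 1 count in IP against 6 in Input, for which the exact 95% interval of the ratio is 0.00208 to 0.789, counting error only.

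The log2 fold change of Matn4 was 0.29 (SE 0.31, edgeR adjusted p = 0.443) in wild types and -1.43 (SE 0.47, adjusted p = 0.0172) in heterozygotes. The heterozygous call did not hold in the fit with no replicate block for the animal (-1.27, adjusted p = 0.0675) or without het786 (-1.14, adjusted p = 0.0807), and a count minimum of 30 removed the gene from the test.

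**Figure D2:**
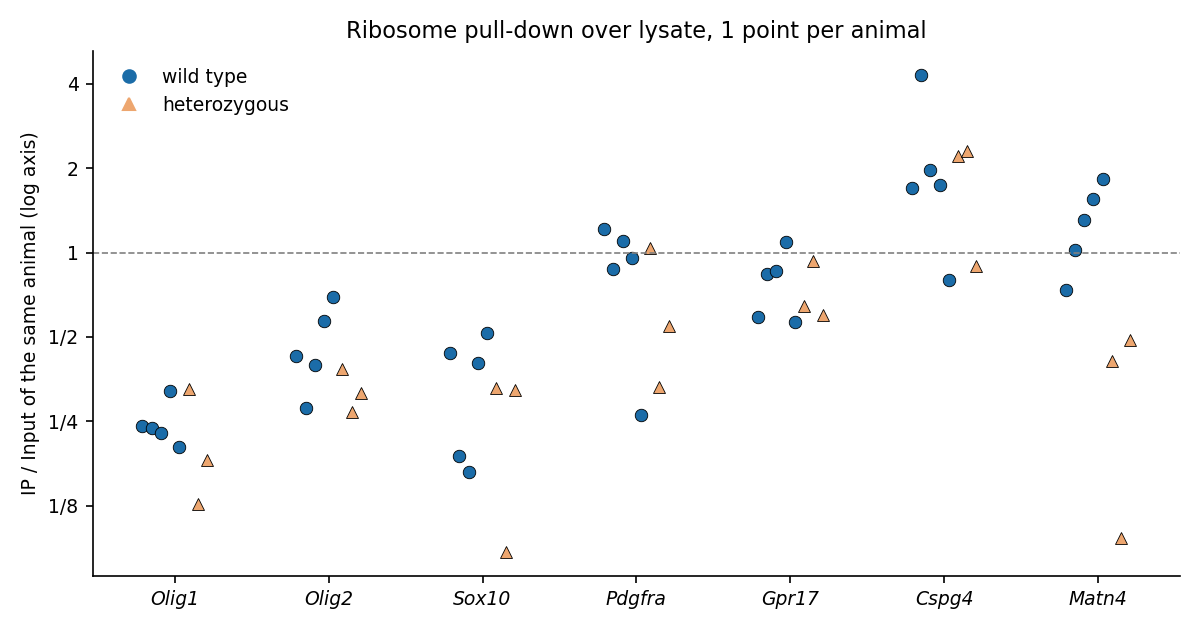
IP divided by Input of the same animal, on a log axis, for the 7 genes: circles are the 5 wild types and triangles the 3 heterozygotes, 1 point per animal. The dashed line marks equal levels. Olig1, Olig2 and Sox10 lie under it in 8 of 8 animals, Cspg4 above it in 6 of 8. For Matn4 the heterozygotes lie under all wild types, as for 1.31% of all genes, and the interaction did not pass (edgeR adjusted p = 0.99998).

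Within an animal, the regulators could be set against the receptor and surface genes with no scaling between libraries. The IP-to-Input ratio of Olig1 was below that of Pdgfra, Gpr17 and Cspg4 in 8 of 8 animals each, and below that of Matn4 in 7, het786 being the exception. Olig2 was below Cspg4 in 8 animals and below Pdgfra and Gpr17 in 7, with wtBT14 the exception both times. Sox10 was below Gpr17, Cspg4 and Matn4 in 8 animals, and below Pdgfra in 7, again except wtBT14. The share of Olig1 relative to Cspg4 was 0.0548 to 0.254 times as high in IP as in Input. These counts describe the 8 animals and carry no test.

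Scaling sets where the line between higher and lower falls for the whole table. By library totals alone the median log2 fold change of all genes moved from 0.03 to 0.26 in wild types and from 0.04 to 0.30 in heterozygotes, and the share of calls that were higher in IP from 52.7% to 72.9% and from 50.6% to 75.2%. Relative to Input, Olig1 then stood at -1.83, Olig2 at -0.96, Sox10 at -1.44 and Cspg4 at 1.06 on the log2 scale in wild types, each with its call kept. No member turned its direction in IP against Input under this scaling, under RLE or under upper-quartile scaling.

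Other genes of the lineage were read from lists. Of 18 other transcription factors that act in the lineage, 13 were lower in IP in wild types and none was higher, with a median log2 fold change of -0.86 against 0.03 for all genes. They included Sox9 (-1.25, SE 0.10), Id2 (-0.92, SE 0.09), Hes5 (-1.74, SE 0.17) and Tcf7l2 (-1.10, SE 0.13). Sox9, Id2 and Hes5 are also expressed by astrocytes. In heterozygotes 11 of the 18 were lower and none higher.

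Among 16 tested genes enriched in precursors beside the members, 7 were lower in IP, 1 was higher and 8 did not pass, with a median of -0.27. Bcan, a matrix proteoglycan also made by astrocytes, was lower (-1.20, SE 0.13), as were Tmem100 (-1.45, SE 0.20) and Susd5 (-1.63, SE 0.35). Dscam, an adhesion molecule also made by neurons, was higher (0.72, SE 0.14). Of 14 genes of mature oligodendrocytes 12 were lower and none higher, with a median of -1.86, led by Mal (-2.07, SE 0.11), Mog (-1.70, SE 0.12), Opalin (-2.49, SE 0.17) and Ermn (-2.43, SE 0.15). Of 12 genes of newly formed oligodendrocytes, with a median of -0.22, 4 were lower and 2 higher, Nfasc (0.73, SE 0.11), which neurons also express, and Cnksr3 (0.95, SE 0.30).

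The growth factor list holds the ligands of Pdgfra. Of its 10 tested genes 5 were lower in wild-type IP and none was higher. Fgf1 (-1.71, SE 0.18), the receptor Fgfr2 (-0.95, SE 0.17), Igf1 (-1.07, SE 0.19) and Bmp4 (-1.67, SE 0.42) led it. Pdgfa, the chief ligand of Pdgfra, stood at 28.3 ± 4.92 CPM in wild-type Input and 27.3 ± 3.62 in wild-type IP (SD, n = 5), which overlap.

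Markers of other cell types moved between the fractions as well. In wild types 7 of 8 astrocyte genes, 4 of 6 microglial genes, 3 of 5 mural genes, 3 of 5 genes of fibroblast-like cells, 1 of 4 endothelial genes and 5 of 8 neuronal genes were lower in IP. Those higher in IP were the astrocyte gene Aldh1l1 (0.71, SE 0.10), Dcn of the fibroblast-like list (1.18, SE 0.17) and 3 genes of excitatory neurons, Tbr1 (0.75, SE 0.09), Slc17a7 (0.68, SE 0.09) and Neurod6 (0.27, SE 0.07). The mural list, which bears on Cspg4, summed to 57.5 to 69.4 CPM in wild-type Input and 40.9 to 48.8 in wild-type IP, and 2 of its 5 tested genes had a positive fold change, among them Pdgfrb (0.13, SE 0.30, not called). Its part in the value of Cspg4 was not tested. The fibroblast-like list, which bears on Pdgfra, summed to 25.4 to 34.8 CPM in wild-type Input and 26.0 to 57.7 in wild-type IP. Dcn alone held 13.9 ± 1.63 CPM of this in Input and 33.5 ± 13.2 in IP (SD, n = 5). The list's median log2 fold change was -1.08, with Col1a2 (-1.35, SE 0.42), Slc6a13 (-1.30, SE 0.29) and Igf2 (-1.08, SE 0.34) lower in IP. None of the genes of these 2 lists was at 0 in all libraries of a wild-type group. All list counts are on the TMM scale, and by library totals every value moves up with the median of all genes given above.

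**Figure D3:**
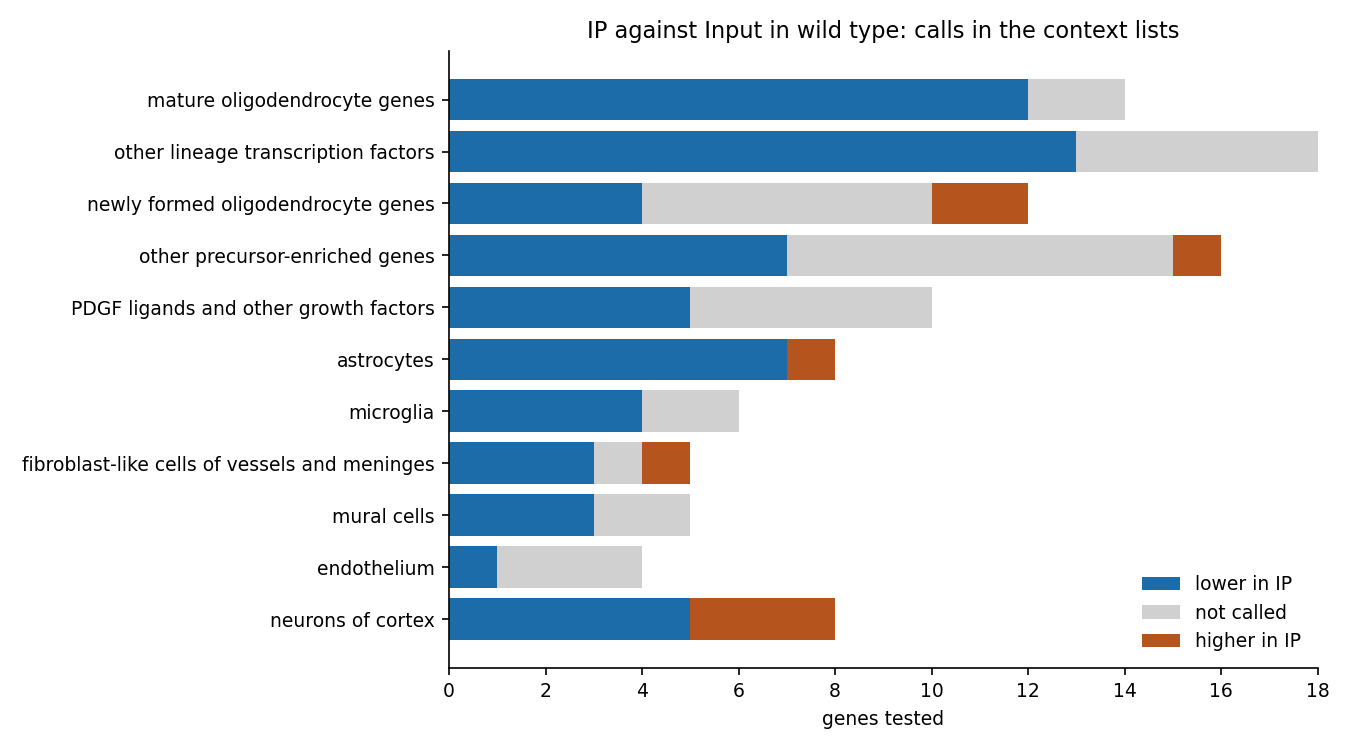
Number of genes tested in each list (bar length) in wild-type IP against Input, divided into genes called lower in IP (blue), not called (grey) and higher in IP (orange). No gene of the mature oligodendrocyte list (14 tested) or of the other lineage transcription factors (18 tested) was higher in IP.

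Exon length differed between the members that were lower in IP and the rest. Olig1, Olig2 and Sox10 have 2162, 2530 and 3051 bases of exon, Matn4 and Gpr17 5174 and 5195, Pdgfra 10024 and Cspg4 11931. Across all protein-coding genes tested, in 5 classes of equal size by exon length, the median log2 fold change in wild types went from 0.01 in the shortest class to 0.21 in the longest, and the share called lower from 29.1% to 17.2%. Olig1 and Olig2 are in the shortest class, Sox10 in the next, and Cspg4 and Pdgfra in the longest. The part of length in the members' values was not tested.

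**Figure D4:**
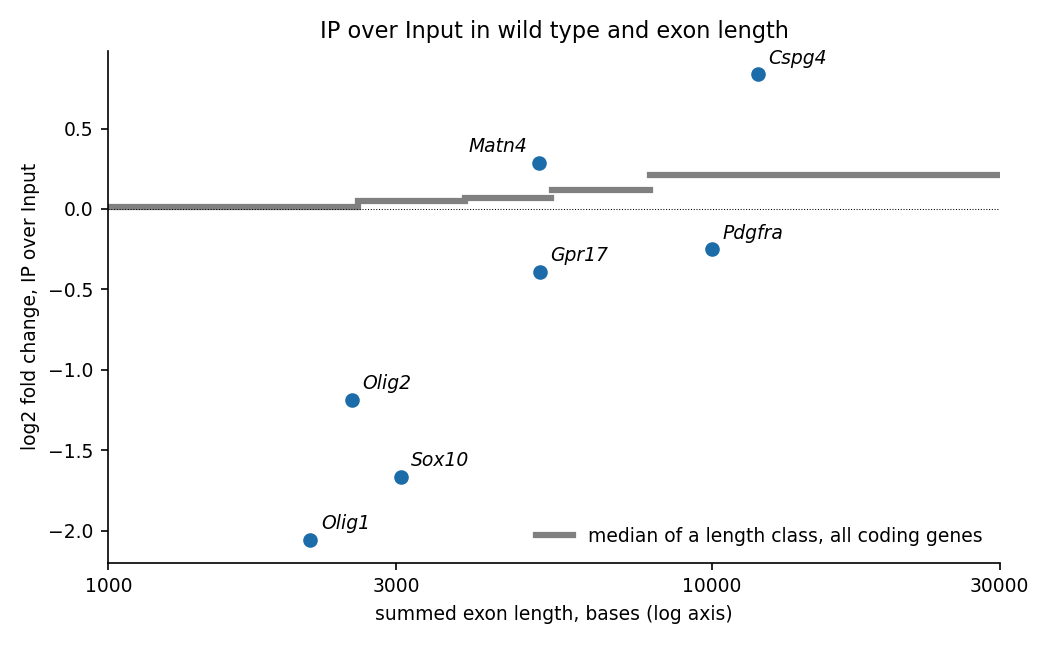
Log2 fold change of IP over Input in wild types for the 7 genes (points) against their summed exon length (log axis), with the median of all protein-coding genes in each of 5 length classes (grey lines, the outer classes cropped at the edges of the plot). Class medians run from 0.01 to 0.21, and Olig1, Olig2 and Sox10 lie between -2.06 and -1.19.

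The question of the study's genotype groups is whether the deletion goes with other RNA levels in either fraction. No member passed the test between heterozygotes and wild types, in IP or in Input. In IP all 7 had a lower mean in heterozygotes, as 49.3% of all genes had a negative fold change, with Pdgfra at 46.2%, Cspg4 at 52.3% and Matn4 at 35.8% of the wild-type mean CPM, and Olig1 at 94.9%. The fold change of Olig1 turned positive without het786, hetBT13 or wtBT13 (up to 0.17), and that of Sox10 without het786 (0.004). These values came from 3 against 5 libraries, fitted within each fraction by edgeR's quasi-likelihood F test, adjusted over 14755 genes in IP and 13870 in Input. No gene of the table passed in either fraction, so that the share called was 0.0% in both and the members' count of 0 tells nothing of them in particular. At an unadjusted p below 0.05, 3 of 7 members stood out in IP, where 4.09% of all genes did, and 1 of 7 in Input, where 7.06% did. The IP count was 1 without het786 (Cspg4) and 2 without het729 (Pdgfra and Olig1). It was 2 (Cspg4 and Matn4) without hetBT13, wt734, wt785 or wtBT13 and in limma-voom, where Pdgfra missed it each time. With the stricter count filter it was 2 of 6 (Pdgfra and Cspg4), and it stayed at 3 without wt736 or wtBT14. The Input count was 0 without het729 and in DESeq2, and 2 (Pdgfra and Cspg4) without wt736 or with no filter on low counts. Its 1 member was Pdgfra in the main fit. It was Cspg4 without hetBT13 or with the IX and IXX libraries, and Olig1 without wt734. DESeq2 called 3 genes in IP and 0 in Input, none of them a member, and limma-voom called 0 in both.

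Pdgfra held 3.58 ± 1.87 CPM (SD, n = 3) in heterozygous IP and 7.76 ± 3.98 (n = 5) in wild-type IP, from 11 to 32 and 13 to 71 counts a library. The log2 fold change was -1.10 (SE 0.47, unadjusted p = 0.0348 and adjusted p = 0.981 in edgeR). All heterozygotes lay below wt734, wt785 and wtBT13, but wtBT14 at 2.39 CPM lay below 2 of the 3. In Input it held 5.71 ± 0.340 and 8.74 ± 1.93 CPM, a change of -0.60 (SE 0.25, unadjusted p = 0.0262, edgeR adjusted p = 0.683), and wt736 at 5.56 CPM fell inside the heterozygous range.

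Cspg4 held 3.68 ± 1.43 CPM in heterozygous IP and 7.04 ± 2.17 in wild-type IP. Its log2 fold change was -0.93 (SE 0.35, unadjusted p = 0.0174, edgeR adjusted p = 0.981), and wtBT14 at 3.49 CPM overlapped the heterozygotes. In Input the levels were 2.43 ± 1.48 and 3.90 ± 1.32 CPM (-0.77, SE 0.42, edgeR adjusted p = 0.717), from 4 to 19 counts a library.

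Matn4 in IP held 1.32 ± 1.29 CPM in heterozygotes and 3.69 ± 1.16 in wild types. The change was -1.43 (SE 0.54, unadjusted p = 0.0185, edgeR adjusted p = 0.981), from 1, 6 and 16 counts in the heterozygous libraries and 14 to 25 in the wild-type ones. It was -2.50 without hetBT13 and -0.94 without het786. hetBT13 at 2.72 CPM overlapped the wild types through wt734 at 2.36. In Input the sign was the other way, 3.37 ± 1.95 against 2.91 ± 0.367 CPM (0.14, SE 0.36, edgeR adjusted p = 0.944), carried by hetBT13.

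The regulators and Gpr17 lay closer to equality. Olig1 held 49.8 ± 23.7 CPM in heterozygous IP and 52.5 ± 9.98 in wild-type IP (-0.08, SE 0.24), and 237 ± 7.14 against 214 ± 21.9 in Input (0.16, SE 0.09). The highest heterozygous IP library, het729 at 76.4 CPM, is also the one with the mitochondrial share of 0.398%, whose part in the value was not tested. Olig2 stood at -0.31 (SE 0.22) in IP and 0.16 (SE 0.22) in Input, Sox10 at -0.40 (SE 0.42) and -0.04 (SE 0.19), and Gpr17 at -0.22 (SE 0.27) and -0.08 (SE 0.22). Adjusted p-values of these 4 genes in edgeR ran from 0.736 to 0.994.

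The median log2 fold change of the 7 members was -0.40 in IP, where that of all genes was 0.003, and -0.04 in Input, where it was 0.005. Lists of other cells had medians as low in IP: -0.52 for astrocyte genes (7 of 8 lower, 5 at an unadjusted p below 0.05), -0.42 for microglial genes (6 of 6 lower) and -0.43 for endothelial genes (3 of 4 lower), with none called. The mural list had a median of -0.73 (4 of 4 lower) and the fibroblast-like list -0.56 (3 of 4 lower), also with none called. Neuronal genes had 0.06 (3 of 8 lower). In Input the medians were -0.49 for astrocyte, -0.43 for microglial and -0.37 for endothelial genes. They were -0.10 for the mural list, -0.19 for the fibroblast-like list and 0.09 for neuronal genes. In neither fraction did any member have all heterozygotes below all wild types, which held for 1.76% of all genes in IP and 3.05% in Input. Animal names come in 2 forms, with and without the letters BT, which the labels do not explain. Within the BT names (1 heterozygote, 2 wild types) the heterozygous IP level was 49.0% of the wild-type one for Pdgfra, 56.3% for Cspg4 and 55.8% for Matn4. Within the other names (2 against 3) it was 43.8%, 49.8% and 21.5%.

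Cells that share these genes were looked at in the same libraries. The mural list summed to 23.8 to 38.9 CPM in IP of heterozygotes and 40.9 to 48.8 CPM in IP of wild types. Rgs5 held 16.7 ± 7.87 and 22.0 ± 2.33 CPM of this, and Vtn 7.64 ± 1.37 and 13.9 ± 3.67. All 4 tested genes of the list's 8 were lower on average in heterozygotes, none called. Anpep, which did not pass the count filter, was at 0 in all heterozygous IP libraries. In Input the mural sums overlapped (50.4 to 63.0 and 57.5 to 69.4 CPM). The fibroblast-like list summed to 23.8 to 33.7 CPM in heterozygous and 26.0 to 57.7 in wild-type IP. Dcn alone held 22.8 ± 4.87 and 33.5 ± 13.2 CPM of this. Col3a1, which did not pass the count filter, was at 0 in all heterozygous IP libraries. Astrocyte genes summed to 819 to 898 CPM in heterozygous Input and 953 to 1431 in wild-type Input, and to 536 to 595 and 571 to 785.7 CPM in IP, where the groups overlap. Single genes with every heterozygote below every wild type made up 1.76% of those tested in IP and 3.05% in Input. No such share was taken for sums over lists. The part of these cells in the members' genotype values was not tested.

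Other lineage genes gave no call between the genotypes either. Of the precursor-enriched list 14 of 17 tested genes were lower on average in heterozygous IP and 13 of 14 in Input, with medians of -0.28 and -0.33, among them Ptprz1 (-0.71, SE 0.24, in IP) and Ednrb (-0.68, SE 0.24, in IP), both without passing adjustment. The mature oligodendrocyte list had medians of -0.13 in IP and -0.07 in Input, the newly formed oligodendrocyte list 0.13 (8 of 12 positive) and -0.15, and the other transcription factors 0.04 and -0.04.

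**Figure D5:**
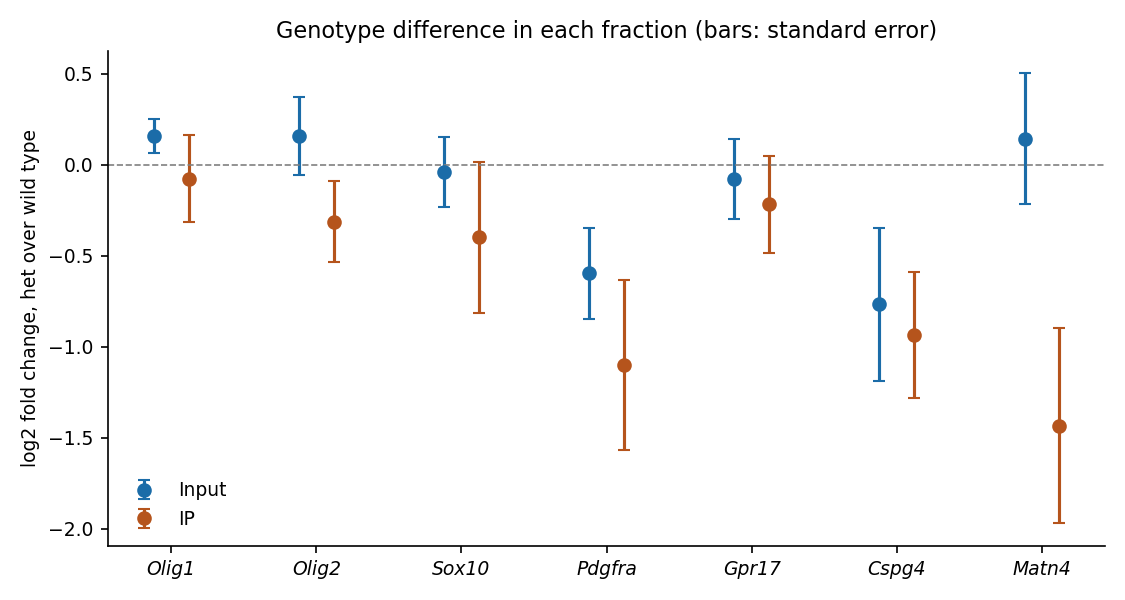
Log2 fold change of heterozygotes over wild types for the 7 genes in Input (blue) and IP (orange), from edgeR, with bars of 1 standard error. No value passed adjustment; the lowest are Matn4 (-1.43), Pdgfra (-1.10) and Cspg4 (-0.93), all in IP.

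Whether the genotype difference itself differed between fractions was tested as an interaction in the 16-library fit. All 7 members had a lower value in IP than in Input, where 52.5% of all genes did. None of the members passed (edgeR adjusted p = 0.99998 for each), as none of 14797 genes did, or 0.0%. At an unadjusted p below 0.05, 1 member of 7 stood out, where 3.07% of all genes did. That member was Matn4, at -1.72 (SE 0.56, unadjusted p = 0.0057), with Olig1 beside it without het729 and Olig2 without wt736. DESeq2 and limma-voom called no gene. Pdgfra stood at -0.46 (SE 0.47), Olig2 at -0.48 (SE 0.28), Sox10 at -0.41 (SE 0.43), Olig1 at -0.29 (SE 0.25), Cspg4 at -0.20 (SE 0.55) and Gpr17 at -0.13 (SE 0.32).

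Another 4 Input libraries, of heterozygotes het730 and hetBT14, have titles with the ending IX or IXX, which the labels do not explain, and entered no main comparison. Pdgfra held 7.51 and 5.89 CPM in those of het730 and 9.73 and 7.83 in those of hetBT14, all inside the wild-type Input range of 5.56 to 10.6. With these libraries summed by animal, the Input change of Pdgfra was -0.34 and that of Cspg4 -0.93 (unadjusted p = 0.0101, edgeR adjusted p = 0.686). Olig1 held 265 and 294 CPM in het730 and 199 and 200 in hetBT14. Cspg4 had 0 counts in the IX library of het730, which allows up to 3 counts or 1.25 CPM, and 1.98 to 2.80 CPM in the other 3.

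Likeness to other genes was read over 12178 genes with a mean CPM of at least 5. Across the 8 Input libraries, of both genotypes, the log2 CPM of Pdgfra ran most like Tmem87b (Pearson r = 0.970), Selenof (0.970) and Akap17b (0.964), that of Olig1 most like Gatad2b (0.952), Atxn2 (0.946) and Zfyve9 (0.929), and the mean of the members most like Emc10 (0.964), Ephb3 (0.936) and Mrto4-ps2 (0.932). Over all 16 libraries Pdgfra ran most like Cntnap5b (0.810), Tmem59l (0.804) and Tprn (0.802). For Olig1 (Fth1, 0.989; Gm12164, 0.988; Ftl2-ps, 0.986) and for the mean of the members (F3, 0.949; Bcan, 0.926; Mlc1, 0.925) the values over 16 libraries follow the gap between IP and Input. Among the members, Pdgfra and Cspg4 gave r = 0.78 over the 8 Input libraries and 0.55 over the 8 IP libraries, and Olig1 and Olig2 0.58 and 0.51. Over the 8 IP libraries Olig1 and Pdgfra gave 0.76 and Sox10 and Matn4 0.75. Over the 8 Input libraries the same pairs gave -0.34 and 0.24. The genes most like a member are the highest of 12178 values, over few libraries that share depth and scaling.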

How the data were processed

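Cortical lysates (Input) and anti-GFP ribosome pull-downs (IP) were made into Smart-seq2 libraries, which mark neither strand nor single molecules, so counting intervals cover counting error only. The deposited table holds whole-number read counts for Ensembl genes. Per the submitters' processing notes, the authors used HTSeq and the mm10 build. Which HTSeq version, aligner, annotation and strand setting were used is not stated in the labels. Names, positions and exon lengths came from the GENCODE annotation of GRCm38, with 24873 identifiers named and 444 not. Exons of Matn4 overlap Rbpjl (149 bases), those of Gpr17 overlap Lims2 (188 bases) those of Pdgfra overlap Gm42802 (456 bases) and Gm42803 (166 bases), and those of Olig1 overlap Gm15966 (157 bases, 7.26% of its exons), all on the opposite strand, whose reads cannot be told apart.

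Counts were tested in R 4.3.3 with edgeR 4.0.16 (filterByExpr, count minimum of 10; TMM; robust quasi-likelihood F tests; Benjamini-Hochberg adjusted p below 0.05 over all genes tested), with DESeq2 1.42.0 and limma-voom (limma 3.58.1) as alternatives. All 7 measured members passed the filter in every comparison. Genotype was tested within each fraction and IP against Input with the animal as a block, since the protocol takes both from 1 lysate. The fits were also run on simulated counts drawn without an animal effect, so the block by animal was not put to the test. No share of recovered genes was required there for the interaction. CPM use TMM-scaled totals, and log2 CPM a prior count of 1. Named genes are the 8 members, Foxp2 as the check of the labels, and at most 4 genes of smallest p in each list and comparison. The 3 genes most like Pdgfra, Olig1 and the members' mean are named too. Pdgfa in IP against Input, Aldh1l1, Neurod6 and Cnksr3 were named after their values were seen. Anpep and Col3a1 were named for being at 0 in heterozygous IP. The 11 lists share Bmp4, Pdgfrb and Tcf7l2. Members and lists were chosen with earlier results of these data known. The exon-length classes were added after seeing the data. Alternatives were other scalings, filters and tools, leaving out each animal, the form of the animal's name as a covariate, the IX and IXX libraries, and no block.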

Additional observations from a re-analysis of the deposited data

Results flagged for a closer look

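Of 21 groups of 4 or more libraries examined, 1 had a library set apart from the rest: Olig1 in the Input of wt734 stood at 251.8 CPM, with the other 4 wild-type Input libraries between 196 and 212. Chance alone sets about 1 group in every 20 apart in this way.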

How the results depend on the processing

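Calls on Olig1, Olig2 and Sox10 in IP against Input held in both genotypes under each of 16 alternatives. Leaving out each animal in turn moved the log2 fold change across 0 for Olig1 (-0.52 to 0.17) and Sox10 (-0.699 to 0.00433) between genotypes in IP, for Matn4 (-0.34 to 0.40), Sox10 (-0.167 to 0.0228) and Gpr17 (-0.154 to 0.0210) in Input, for Pdgfra in wild-type IP against Input (-0.419 to 0.0449), and for Cspg4 (-0.52 to 0.30), Olig1 (-0.683 to 0.0160) and Sox10 (-0.687 to 0.0317) in the interaction. With the IX and IXX libraries Matn4 in Input turned to -0.0449. Over all genes, DESeq2 called 3 between genotypes in IP, and no filter on low counts gave 28 calls in Input and 11 in the interaction. Without TMM the heterozygous Input means were 5.25 CPM for Pdgfra, 218 for Olig1 and 14.2 for Sox10. The wild-type Input means were then 8.31, 204 and 15.2 CPM. Such means differ from the TMM-scaled ones only by the TMM factors, 0.901 to 0.945 in heterozygous and 0.941 to 0.963 in wild-type Input. The cause of the other shifts was not tested. Without the replicate block Matn4 in heterozygotes was no longer called (-1.27, adjusted p = 0.0675 in edgeR), and no other member's call changed. The genotype tests within a fraction could not be paired, because the genotype groups are different animals. Matn4, Cspg4 and Gpr17, at 51 counts or fewer in each compared library, are limited by depth. So is Pdgfra in heterozygotes, with 11 to 32 counts a library in IP and 14 to 21 in Input.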
